A study of Sus scrofa with 30 samples.

Results

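The genes described here encode the enzymes and shared subunits of the complexes that methylate lysine 4 of histone H3 (H3K4). They were taken from a fixed list of 10 names, KMT2A, KMT2B, KMT2C, KMT2D, SETD1A, SETD1B, WDR5, RBBP5, ASH2L and DPY30. All 10 were found among the 19484 protein-coding genes annotated on chromosomes 1 to 18 and X of the pig assembly. For each gene and library, the length in base pairs (bp) covered by called peaks was summed within 5 kb on either side of both gene ends. This gave a window of 20002 bp for each of the 10 genes, so covered lengths are on the same scale for all of them.

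Chromatin of pig oocytes and of embryos fertilised in vitro had been profiled by native immunoprecipitation from very few cells, followed by sequencing (ULI-NChIP-seq). Trimethylation of H3K4 (H3K4me3) was profiled in germinal vesicle (GV) oocytes, metaphase II (MII) oocytes, 1-cell, 2-cell, 4-cell and 8-cell embryos, morulae and blastocysts, all untreated. It was also profiled in 4-cell embryos that had received siRNA against KDM5B and KDM5C as zygotes (siKDM5BC). Trimethylation of H3 lysine 27 (H3K27me3) was profiled in untreated MII oocytes, 2-cell, 4-cell and 8-cell embryos, morulae and blastocysts. Each of the 15 groups had 2 libraries. The labels name no injected control, so the comparison group was the untreated 4-cell embryos, and the injection itself cannot be told apart from the siRNA. The peak lists hold no transcript values, so the extent of the knockdown was not measured here. The sources used here do not say how many oocytes or embryos were pooled, nor whether the replicates came from separate collections. The p-values therefore measure the spread between these libraries, which may be technical.

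H3K4me3 marks the start sites of active and poised genes, and is written by related complexes that each hold 1 catalytic enzyme. KMT2A and KMT2B act in the complexes that also bind menin, KMT2C and KMT2D in the complexes linked to enhancer monomethylation, and SETD1A and SETD1B in the complexes that place much of the promoter trimethylation. All of them use the same core, made of WDR5, RBBP5, ASH2L and DPY30, without which the enzymes are weakly active. H3K27me3 is the mark of Polycomb repression, and in early embryos H3K4me3 is known to change from wide oocyte domains to narrow promoter peaks around genome activation.

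Covered length differed widely between libraries. H3K4me3 lists held 37481 to 119878 peaks that covered 31.6 to 179 Mb, and H3K27me3 lists held 2358 to 80700 peaks that covered 1.28 to 109 Mb. The lists hold no read totals, so a peak missing from a list was not called at a depth that is not stated. Whether a marker gene had a peak did not separate the stages. In MII libraries 5 of 7 oocyte markers had an H3K4me3 peak in both libraries, and in blastocysts 5 of 7 did. All 6 trophectoderm markers had a peak in both libraries of every H3K4me3 group, and at a −log10 q of 3 or more 0 of 6 did in MII oocytes and 6 of 6 in blastocysts. Both epiblast markers that matched the annotation (of 3 listed) and all 3 hypoblast markers had a peak in both libraries of every group. Of the 7 cumulus and granulosa markers that matched (of 8 listed), 3 were marked in both GV libraries and 2 in both MII libraries. Those at 0 bp in both libraries were TNFAIP6 and CYP19A1 in GV oocytes, and PTX3, FSHR and CYP19A1 in MII oocytes. The sperm list had 0 of 3 genes marked in both GV or MII libraries, 2 of 3 in 1-cell embryos and 2 of 3 in blastocysts. A peak does not measure a transcript, and the part of other cells in the values below was not tested.

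The 10 genes were nearly always marked. Every one had an H3K4me3 peak in its window in both libraries of 8 of the 9 H3K4me3 groups, and the exception was MII, where RBBP5 had no peak and 9 of 10 were marked. Among all coding genes 79.1% were marked in both libraries in GV oocytes, 72.6% in MII oocytes, 74.7% in 1-cell, 80.8% in 2-cell, 75.7% in 4-cell and 79.9% in 8-cell embryos, 82.8% in morulae, 82.4% in blastocysts and 84.4% in siKDM5BC embryos. When peaks under a −log10 q of 3 were set aside, the count in both libraries was 1 gene in GV oocytes (WDR5, against 23.8% of all genes), 0 in MII oocytes (0.0821%), 0 in 1-cell embryos (0.144%) and 0 in 2-cell embryos (0.216%). It was 6 genes in 4-cell embryos (44.7%), 10 in 8-cell embryos (59.9%), 10 in morulae (77%), 10 in blastocysts (77.7%) and 8 in siKDM5BC embryos (62.7%). Lists from MII oocytes to 2-cell embryos thus held mainly peaks of low significance, for these genes as for all genes.

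The median share of the window covered by H3K4me3 over the 10 genes was 3.37% and 8.03% in the MII libraries, beside 4.76% and 7.77% over all coding genes. In the untreated 4-cell libraries it was 22.5% and 16.5%, beside 8.66% and 5.29%. In blastocysts it was 28.2% and 29.2%, beside 13.8% and 13.9%, and in siKDM5BC embryos 29.6% and 25.3%, beside 17.8% and 15.9%. In MII replicate 1 the median of the 10 genes lay below that of all coding genes, and in the other 17 H3K4me3 libraries it lay above. Single genes of the 10 could lie on either side.

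**Figure D1:**
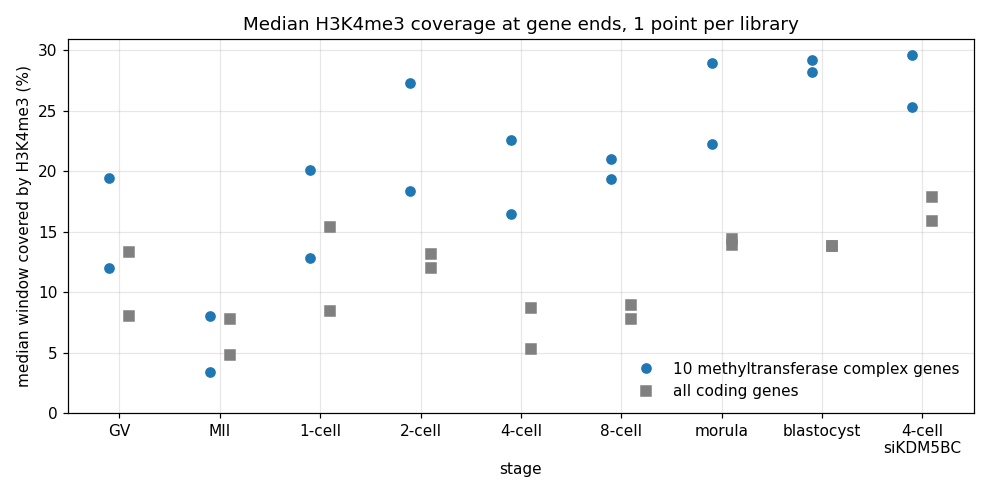
Median share of the window covered by H3K4me3 peaks (%, vertical axis) in each library, by stage; circles are the 10 methyltransferase complex genes and squares all coding genes, 1 point per library. The circles lie lowest in MII oocytes (3.37% and 8.03%) and reach 28.2% and 29.2% in blastocysts, where the squares are at 13.8% and 13.9%.

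Across the 8 untreated stages, RBBP5 and KMT2C had the widest spread of the 10 genes. The share of the window covered was compared between stages with limma (F test over the 8 stage means, fitted on 18229 genes, Benjamini-Hochberg adjusted). At an adjusted p under 0.05, 6 of the 10 genes were called, beside 57.2% of all genes, so this count lies close to the background. The range of stage means had a median of 24.0 percentage points over the 10 genes and 18.7 over all genes fitted. The 6 genes called were RBBP5 (range 67.1 points, limma adjusted p = 1.13e-07), KMT2C (45.4 points, 4.42e-05), KMT2D (28.2 points, 0.00666), ASH2L (20.8 points, 0.0164), SETD1A (23.3 points, 0.0183) and KMT2B (20.2 points, 0.0429). Those not called were SETD1B (24.7 points, limma adjusted p = 0.0746), WDR5 (25.7 points, 0.115), DPY30 (11.2 points, 0.118) and KMT2A (10.7 points, 0.734). KMT2B was called in only 9 of 26 other settings, and RBBP5, KMT2C and KMT2D in 26 of 26. With peaks of −log10 q 3 or more, SETD1B (47.6 points, 0.00181), WDR5 (36.0 points, 0.000593), DPY30 (13.4 points, 0.00416) and KMT2A were called as well, and the first 3 of these also with peaks of fold 3.5 or more. Of all genes fitted, 81.1% were called with the −log10 q filter and 58.8% with the fold filter, so these gained calls are a description. Leaving out either 1-cell library also gave a call for SETD1B and WDR5. SETD1A was lost with windows of 2.5 kb (0.0764) and without either MII library (0.0704 and 0.0734), and ASH2L without MII replicate 1 (0.0517).

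**Figure D2:**
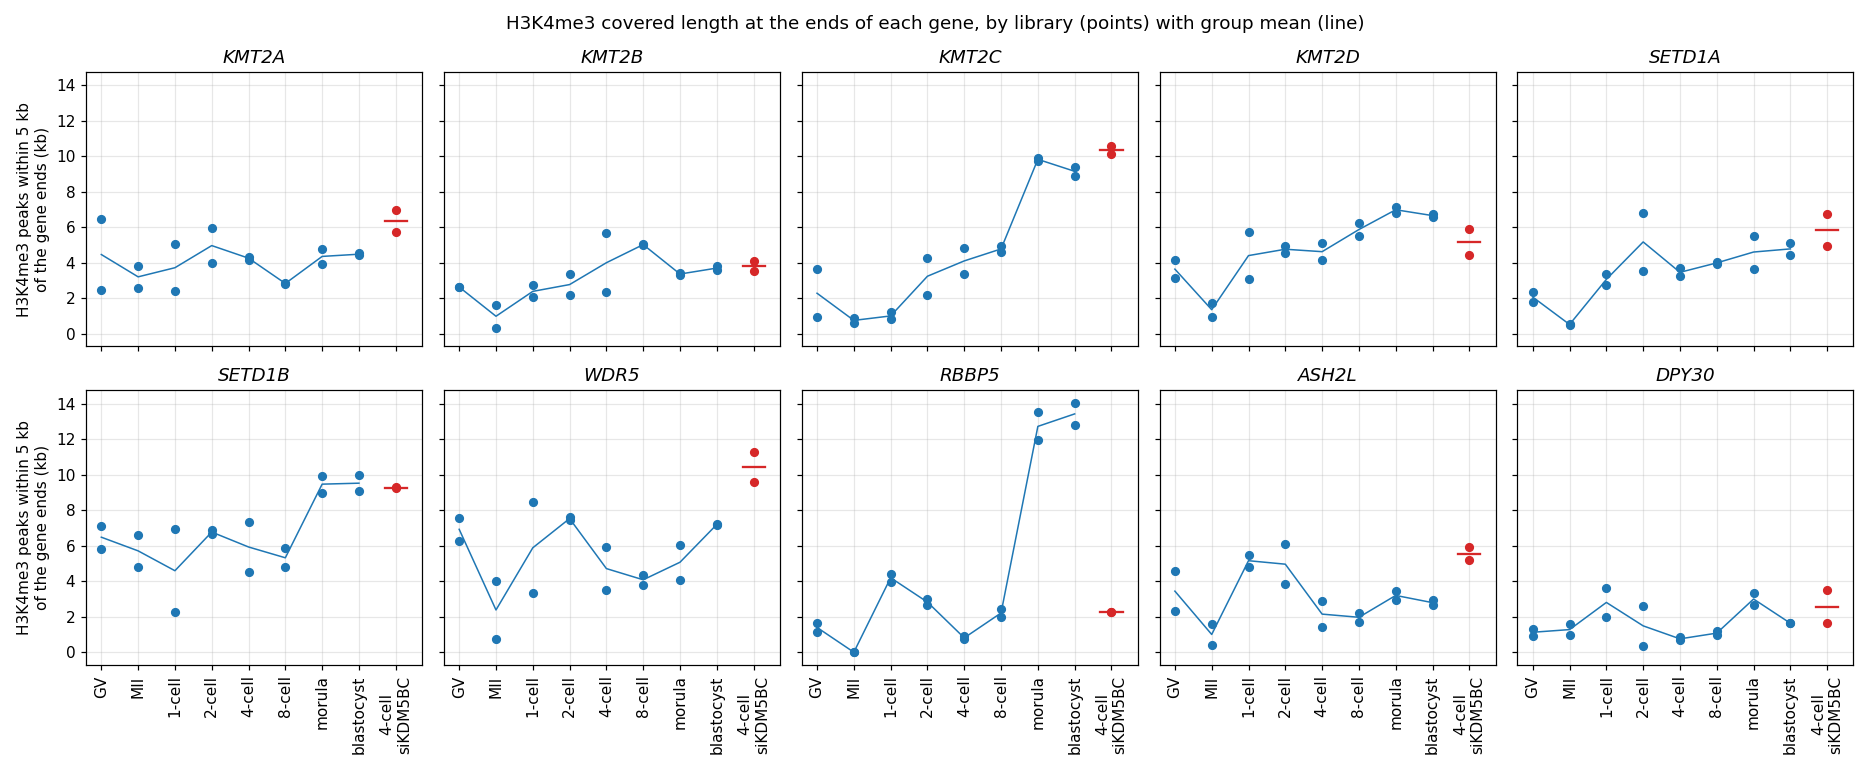
H3K4me3-covered length within 5 kb of both gene ends (kb, vertical axis) for each of the 10 genes at each stage; points are libraries, lines join the means of 2 libraries, and red marks the siKDM5BC 4-cell embryos. RBBP5 stands at 0 in both MII libraries and between 11934 and 14053 bp in the 4 morula and blastocyst libraries.

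Of the enzymes, KMT2C, which with KMT2D is best known for H3K4 monomethylation at enhancers, gained most. The gene (gene 100514805) lies at chr18:4993213-5279668 on susScr11, with no other annotated gene within 5 kb of its ends. H3K4me3 covered 3627 and 934 bp of its window in GV oocytes, 593 and 908 bp in MII oocytes, 802 and 1202 bp in 1-cell embryos and 4277 and 2201 bp in 2-cell embryos. It covered 4850 and 3355 bp in 4-cell embryos, 4951 and 4604 bp in 8-cell embryos, 9909 and 9744 bp in morulae and 9402 and 8901 bp in blastocysts. The 4 morula and blastocyst libraries were all above the 12 earlier ones, and the 4 MII and 1-cell libraries overlapped each other and GV replicate 2 near the bottom. The lower-coordinate end held 80.4% of the covered length of the 16 untreated libraries.

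The widest peak near KMT2C grew at the lower-coordinate end. It was 4026 and 4064 bp wide in the 8-cell libraries. In morulae it was 12249 bp (chr18:4989553-5001801) and 9642 bp wide (chr18:4989846-4999487), and in blastocysts 8833 and 7956 bp. The morula and blastocyst peaks thus extended from the gene end several kb into the gene, and no 8-cell peak reached that width. Inside KMT2C, more than 5 kb from both ends (276454 bp), H3K4me3 covered 4604 and 3216 bp in GV and 2479 and 1053 bp in MII oocytes. It covered 9326 and 9320 bp in 1-cell, 9267 and 13571 bp in 2-cell, 814 and 658 bp in 4-cell, 1431 and 0 bp in 8-cell embryos, 7650 and 7632 bp in morulae and 8510 and 6863 bp in blastocysts. The 4-cell and 8-cell libraries were all below those of GV oocytes, 1-cell and 2-cell embryos, morulae, blastocysts and siKDM5BC embryos (4749 and 3017 bp), and overlapped those of MII oocytes.

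KMT2D (gene 110260656, chr5:15049827-15091622), the close relative of KMT2C, was also most covered in morulae and blastocysts. H3K4me3 covered 4132 and 3146 bp in GV oocytes, 968 and 1739 bp in MII oocytes, 5712 and 3093 bp in 1-cell, 4948 and 4573 bp in 2-cell and 5093 and 4153 bp in 4-cell embryos. It then covered 5500 and 6241 bp in 8-cell embryos, 7159 and 6811 bp in morulae and 6736 and 6577 bp in blastocysts. Only MII lay below all other stages, and the 4 late libraries lay above all earlier ones. PRKAG1 lies 151 bp from its lower-coordinate end and RHEBL1 2776 bp from the other, so part of this length may belong to them. The lower-coordinate end held 25.3% of it.

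KMT2A (gene 100623006, chr9:45743566-45828559), which encodes the founding MLL protein, showed no change that passed the test with all peaks counted. With peaks of −log10 q 3 or more it was called across stages (20.5 points, limma adjusted p = 0.00797), beside 81.1% of all genes fitted. H3K4me3 covered 6463 and 2461 bp in GV oocytes, 2576 and 3833 bp in MII oocytes, 2380 and 5057 bp in 1-cell and 5956 and 3976 bp in 2-cell embryos. It covered 4169 and 4346 bp in 4-cell embryos, 2864 and 2799 bp in 8-cell embryos, 4795 and 3916 bp in morulae and 4552 and 4410 bp in blastocysts. The pairs of GV, 1-cell and 2-cell libraries between them spanned the whole range of the untreated libraries. KMT2B (gene 100520742, chr6:45146863-45166854), its paralog, was covered over 2607 and 2653 bp in GV oocytes, 334 and 1634 bp in MII oocytes, 2386 ± 474 bp (SD, n = 2) in 1-cell, 2193 and 3345 bp in 2-cell, 5672 and 2329 bp in 4-cell and 5062 and 4980 bp in 8-cell embryos. In morulae it was covered over 3292 and 3434 bp and in blastocysts over 3834 and 3563 bp, below both 8-cell libraries. ZBTB32, U2AF1L4, IGFLR1 and PSENEN have an end inside the KMT2B windows, and TTC36 lies 455 bp from KMT2A.

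SETD1A (gene 100511747, chr3:17463768-17490397), a catalytic subunit of the SET1 complexes, was lowest in MII oocytes. H3K4me3 covered 1791 and 2336 bp in GV oocytes, 553 and 488 bp in MII oocytes, 2736 and 3391 bp in 1-cell, 6830 and 3514 bp in 2-cell, 3692 and 3228 bp in 4-cell and 3956 and 4026 bp in 8-cell embryos. It covered 3674 and 5532 bp in morulae and 4455 and 5105 bp in blastocysts. Both MII values lay below every other library, and from the 2-cell stage on all untreated libraries lay between 3228 and 6830 bp. Only 2.62% of its covered length lay at the lower-coordinate end, and the other end is 127 bp from ORAI3, so the peaks there cannot be assigned to either gene.

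SETD1B (gene 100156137, chr14:30862155-30885592), the paralog of SETD1A, was widely covered from the start. H3K4me3 covered 7122 and 5843 bp in GV oocytes, 4801 and 6624 bp in MII oocytes, 2245 and 6942 bp in 1-cell, 6863 and 6682 bp in 2-cell, 7332 and 4531 bp in 4-cell and 5859 and 4786 bp in 8-cell embryos. It covered 9001 and 9943 bp in morulae and 9976 and 9077 bp in blastocysts. The 4 late libraries were above the other 12, while the early stages overlapped. In 8-cell embryos a peak of 2894 and 2396 bp covered the higher-coordinate end, with a separate peak of 4851 and 4902 bp beyond it. In morulae 1 peak of 10801 and 11347 bp, and in blastocysts 1 of 17038 and 16700 bp, spanned that end and the place of both 8-cell peaks. The end is 461 bp from RHOF, and the lower-coordinate end held 15.5% of the covered length.

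Of the core subunits, RBBP5 changed most. It encodes the subunit that, with ASH2L, contacts the catalytic domain, and lies at chr9:65783725-65821681 (gene 100513301). H3K4me3 covered 1655 and 1137 bp in GV oocytes, 0 bp in both MII libraries, 3982 and 4411 bp in 1-cell, 2666 and 2981 bp in 2-cell, 894 and 725 bp in 4-cell and 2434 and 1991 bp in 8-cell embryos. It covered 11934 and 13521 bp in morulae and 12809 and 14053 bp in blastocysts. The groups from MII to 8-cell embryos did not overlap one another, and the lowest late library lay far above the highest earlier one.

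The late rise at RBBP5 came from both gene ends. At the higher-coordinate end, 6096 and 6359 bp were covered in morulae and 5986 and 6114 bp in blastocysts. At the lower-coordinate end, 11 of the 12 untreated libraries before the morula had 0 bp and 4-cell replicate 2 had 302 bp, while 5838 and 7162 bp were covered in morulae and 6823 and 7939 bp in blastocysts. The peaks there were chr9:65781645-65787482 and chr9:65780388-65787549 in the morula libraries, chr9:65780321-65784910 and chr9:65785857-65788089 in blastocyst replicate 1 and chr9:65780196-65788134 in blastocyst replicate 2. TMEM81 lies 894 bp below that end, so the peaks may belong to either gene. The peak of morula replicate 2 had a −log10 q of 1.91, and with peaks of −log10 q 3 or more the whole window held 11934 and 6359 bp in morulae and 10576 and 14053 bp in blastocysts.

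**Figure D3:**
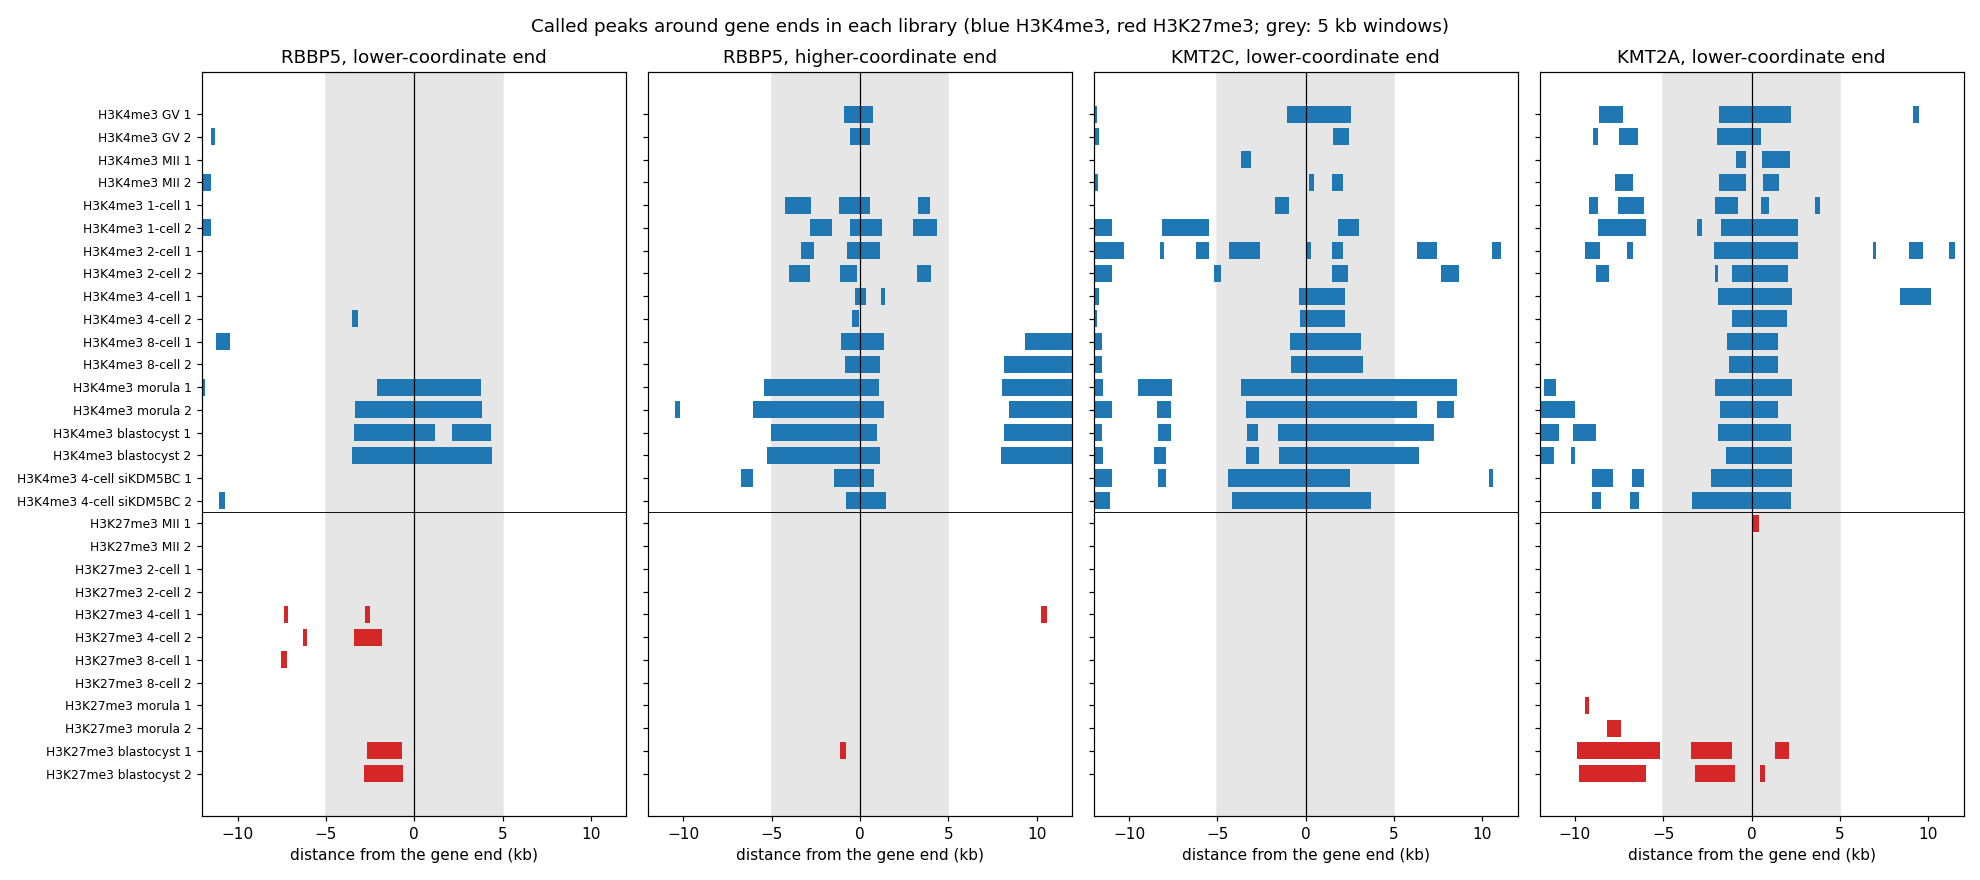
Called peaks (bars) by distance from a gene end (kb, horizontal axis) in each library (rows), H3K4me3 in blue and H3K27me3 in red, with the 5 kb windows in grey. At the lower-coordinate end of RBBP5, wide blue bars are seen in the 4 morula and blastocyst rows, and a 302 bp bar in 4-cell replicate 2; the KMT2C panel shows the bars lengthening to 12249 and 9642 bp in morulae.

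WDR5 (gene 100156729, chr1:273560274-273577827), the propeller protein that holds the core together, varied most between the libraries of a stage. H3K4me3 covered 7570 and 6284 bp in GV oocytes, 757 and 4008 bp in MII oocytes, 3312 and 8459 bp in 1-cell, 7611 and 7454 bp in 2-cell, 5937 and 3490 bp in 4-cell and 3799 and 4367 bp in 8-cell embryos. It covered 4096 and 6048 bp in morulae and 7191 and 7211 bp in blastocysts. Values of GV, 2-cell and blastocyst libraries overlapped. A pair of long noncoding RNA genes lie within its windows.

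ASH2L (gene 100627423, chr15:48386426-48417560), the partner of RBBP5 in the core, was most covered among untreated libraries in 1-cell and 2-cell embryos when all peaks were counted. H3K4me3 covered 4579 and 2307 bp in GV oocytes, 424 and 1580 bp in MII oocytes, 4831 and 5485 bp in 1-cell, 6095 and 3829 bp in 2-cell, 2880 and 1416 bp in 4-cell and 1702 and 2237 bp in 8-cell embryos. It covered 2959 and 3443 bp in morulae and 2659 and 2929 bp in blastocysts. Both the 1-cell and the 2-cell libraries were above all untreated libraries from the 4-cell stage on. With peaks of −log10 q 3 or more this order turned, with 0 bp in the 1-cell and 2-cell libraries and 2659 to 3443 bp in morulae and blastocysts. The call across stages was then lost (16.0 points, limma adjusted p = 0.364), as it was with peaks of fold 3.5 or more (12.1 points, 0.651). Only 2.92% of the length lay at the lower-coordinate end, near STAR.

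DPY30 (gene 100514043, chr3:107520641-107533504), the small subunit that stimulates the core, never had more than 3618 bp covered. H3K4me3 covered 1308 and 943 bp in GV oocytes, 977 and 1576 bp in MII oocytes, 1995 and 3618 bp in 1-cell, 2618 and 355 bp in 2-cell, 841 and 668 bp in 4-cell and 1170 and 985 bp in 8-cell embryos. It covered 2666 and 3330 bp in morulae and 1632 and 1635 bp in blastocysts. The lower-coordinate end held 90.3% of the length, and no other annotated gene lies within 5 kb of the ends.

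Blastocysts were compared with MII oocytes, the last stage before fertilisation. All 10 genes had a positive difference, with a median of 20.2 points beside 6.92 over all genes. The share of all genes with a positive difference was not counted. With centred libraries the difference was negative for ASH2L (−0.0767 points), DPY30 (−7.25) and KMT2A (−2.65) and positive for the others. By limma, 6 of the 10 were called higher, beside 37.5% of all genes, and 0 lower, beside 4.73%. When every library was centred on its mean over the genes fitted, the calls over all genes went from 6827 higher and 862 lower to 3527 higher and 4412 lower. RBBP5 rose by 67.1 points (SE 4.40, 95% interval 57.8 to 76.5, 2 libraries per group, limma adjusted p = 1.28e-07) and ranked 83 of 18229 genes by the size of the difference. KMT2C rose by 42.0 points (SE 5.56, interval 30.2 to 53.8, limma adjusted p = 4.18e-05). KMT2D rose by 26.5 points (SE 5.27, limma adjusted p = 0.00103) and SETD1A by 21.3 points (SE 5.26, 0.00468).

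WDR5 rose by 24.1 points (SE 8.20, limma adjusted p = 0.0280) and KMT2B by 13.6 points (SE 4.68, 0.0297). Both calls were lost with centred libraries, where WDR5 stood at 15.1 points (limma adjusted p = 0.0591) and KMT2B at 4.54 points (0.397), and without MII replicate 1, where they stood at 16.0 points (0.232) and 10.3 points (0.194). They were lost without either blastocyst library too. With quantile-normalised libraries KMT2D (15.4 points, 0.0676), WDR5 (11.7 points, 0.139) and KMT2B (6.27 points, 0.292) were all lost. SETD1B, with a difference of 19.1 points (interval 2.36 to 35.8, limma adjusted p = 0.0625), was not called. It was called with windows of 2.5 kb (28.2 points, 0.0178), peaks of −log10 q 3 or more (47.6 points, 0.000812), peaks of fold 3.5 or more (31.3 points, 0.00434) and without either 1-cell library. ASH2L had 8.96 points (0.145), KMT2A 6.38 points (0.443) and DPY30 1.78 points (0.744), none past the threshold. With peaks of −log10 q 3 or more KMT2A (20.5 points, 0.00521) and DPY30 (8.17 points, 0.0132) were called higher, DPY30 was called with peaks of fold 3.5 or more (0.0113), and ASH2L was called on the log2(bp + 500) scale (0.0276). With the −log10 q filter 0 of the 10 genes had a peak left in both MII libraries, beside 0.0821% of all genes. Over all genes it gave 13416 calls higher and 0 lower, so the calls it added here are a description.

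From 8-cell embryos to morulae, a step chosen after the values above were seen, RBBP5 rose by 52.6 points (SE 4.40, limma adjusted p = 1.59e-06) and KMT2C by 25.2 points (SE 5.56, 0.00497). These 2 of the 10 genes were called higher, beside 18% of all genes, and 0 were called lower, beside 1.59%. Over all genes the calls were 3276 higher and 290 lower, and 1426 higher and 904 lower with centred libraries. KMT2C was called in 22 of 26 other settings and RBBP5 in 26 of 26. KMT2C was lost with windows of 2.5 kb (18.9 points, 0.142), peaks of fold 3.5 or more (0.0557), the log2 scale (0.160) and quantile normalisation (13.5 points, 0.0586). SETD1B differed by 20.7 points without a call (0.0775), and was called with windows of 2.5 kb (28.4 points, 0.0401) and without either 1-cell library. KMT2B differed by −8.29 points (0.249), and was called lower with centred libraries (−14.9 points, 0.0223) and with quantile normalisation (−21.1 points, 0.00419). DPY30, at 9.60 points (0.0947), was called with peaks of −log10 q 3 or more (0.0320) and of fold 3.5 or more (0.0120).

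The 2-cell and 4-cell stages span genome activation in pig embryos. In 4-cell minus 2-cell, 0 of 10 genes were called higher by limma, beside 0.17% of all genes, and 0 lower, beside 12.4%. At an unadjusted p under 0.05, 2 of the 10 (ASH2L and RBBP5) and 5221 of all genes passed. ASH2L differed by −14.1 points (limma adjusted p = 0.0658), WDR5 by −14.1 (0.279), RBBP5 by −10.1 (0.144) and SETD1A by −8.56 points (0.308). KMT2B differed by 6.16 points (0.426) and KMT2C by 4.32 points (0.681). KMT2B was called higher with centred libraries (14.0 points, 0.0415), quantile normalisation (17.4 points, 0.0304) and peaks of −log10 q 3 or more (16.0 points, 0.0251), where KMT2D was also higher (20.8 points, 0.0351), and KMT2C with quantile normalisation (18.1 points, 0.0286). RBBP5 was called lower on the log2 scale (0.0129), and ASH2L without either GV library, either 1-cell library or 2-cell replicate 2 (0.0303 to 0.0485). The median was −3.93 points over the 10 genes and −5.10 over all genes. Over all genes the calls were 31 higher and 2252 lower, 820 and 1006 with centred libraries, and 1971 and 2 with peaks of −log10 q 3 or more, so the direction across the genome depends on the peaks counted.

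Knockdown of the H3K4 demethylases KDM5B and KDM5C asked what happens to H3K4me3 in 4-cell embryos when its removal is reduced. Of the 10 genes, 9 had a higher mean in siKDM5BC than in untreated 4-cell embryos, with a median difference of 11.2 points beside 9.46 over all genes. The share of all genes with a higher mean was not counted. By limma 3 of the 10 were called higher, beside 39.2% of all genes, and 0 lower, beside 0.0713%. KMT2C was covered over 10599 and 10102 bp, against 4850 and 3355 bp in untreated 4-cell embryos, a rise of 31.2 points (SE 5.56, 95% interval 19.4 to 43.1, limma adjusted p = 0.000809). Its widest peak measured 6911 and 7844 bp, against 2598 and 2564 bp.

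WDR5 was covered over 11257 and 9589 bp, against 5937 and 3490 bp, a rise of 28.5 points (SE 8.20, interval 11.1 to 46.0, limma adjusted p = 0.0133). The widest siKDM5BC peaks lay beyond the higher-coordinate end and the widest untreated ones at the lower-coordinate end, so their widths are not compared. ASH2L was covered over 5927 and 5193 bp, against 2880 and 1416 bp, a rise of 17.1 points (SE 4.78, interval 6.87 to 27.2, limma adjusted p = 0.0117). In each of these 3 genes both siKDM5BC libraries were above both untreated ones. The share of all genes with the same separation was not counted.

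The other 7 genes did not pass the test. SETD1B was covered over 9310 and 9230 bp, against 7332 and 4531 bp (16.7 points, limma adjusted p = 0.102). SETD1A was covered over 6769 and 4926 bp, against 3692 and 3228 bp (11.9 points, 0.0832), KMT2A over 5722 and 6972 bp, against 4169 and 4346 bp (10.4 points, 0.198), and DPY30 over 1622 and 3527 bp, against 841 and 668 bp (9.10 points, 0.0719). In each of these genes both siKDM5BC libraries were above both untreated ones as well. How many of all genes showed this was not counted, and their median difference was 9.46 points, so the separation is a description.

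RBBP5 was covered over 2245 and 2280 bp, against 894 and 725 bp, with a difference of 7.26 points (interval −2.11 to 16.6, limma adjusted p = 0.196), and it had no peak at the lower-coordinate end in either siKDM5BC library. KMT2D was covered over 5924 and 4412 bp, against 5093 and 4153 bp (2.72 points, 0.703). KMT2B was covered over 4098 and 3558 bp, against 5672 and 2329 bp (−0.862 points, interval −10.8 to 9.10, 0.921). Calls were gained under other settings for SETD1A with peaks of −log10 q 3 or more (21.6 points, 0.00760), for DPY30 with peaks of −log10 q 3 or more (0.0114) and of fold 3.5 or more (0.0209), and for RBBP5 on the log2 scale (0.0168). They were also gained with 1 library left out for SETD1B (either 1-cell library), SETD1A (either 2-cell library) and DPY30 (either 1-cell or 2-cell library, or siKDM5BC replicate 1). KMT2D and KMT2B overlapped between the groups, and the intervals leave room for a change of several points in either direction.

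The siKDM5BC lists covered 179 and 164 Mb of the genome, against 56.4 and 31.6 Mb in untreated 4-cell embryos, and the lowest fold enrichment in a list was 2.70 and 2.86, against 3.11 and 3.31. The part of this in the gene differences was not tested. With centred libraries KMT2C differed by 16.8 points (limma adjusted p = 0.00928), WDR5 by 14.1 (0.0700), ASH2L by 2.65 (0.590) and KMT2B by −15.3 points (0.00651, called lower), and over all genes the calls went from 7150 higher and 13 lower to 2766 higher and 5865 lower. With quantile-normalised libraries KMT2C differed by 0.352 points (0.997) and KMT2B by −17.3 points (called lower). With peaks of −log10 q 3 or more KMT2C differed by 10.8 points (0.376) and ASH2L by 6.88 (0.548). Without 4-cell replicate 2, WDR5 stood at 22.4 points (0.142) and ASH2L at 13.4 (0.133), and without siKDM5BC replicate 1 at 24.4 (0.102) and 15.2 points (0.0813). Only the KMT2C call was kept with centred libraries, and it was lost with quantile normalisation and with peaks of −log10 q 3 or fold 3.5 and more. WDR5 was still called with both of these peak filters, at 36.4 and 33.5 points, and was lost on the log2 scale (limma adjusted p = 0.0996).

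**Figure D4:**
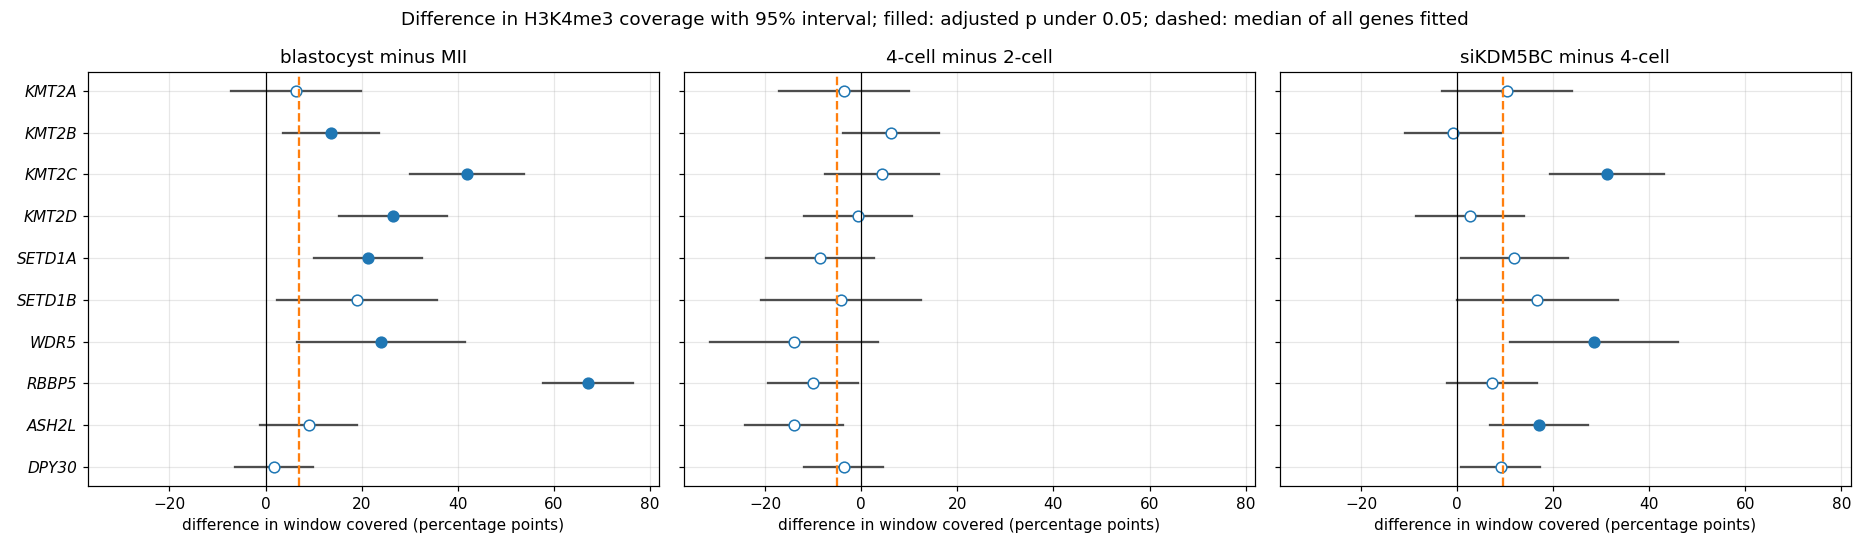
Difference in the share of the window covered by H3K4me3 (percentage points, horizontal axis) for each of the 10 genes in 3 comparisons, with 95% intervals from limma; filled points have an adjusted p under 0.05 and dashed lines are the medians of all genes fitted. RBBP5 (67.1 points) and KMT2C (42.0 points) lie farthest right in blastocyst minus MII, and KMT2C (31.2 points) in siKDM5BC minus 4-cell.

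H3K27me3 peaks were few at these genes, as at coding genes in general, whose median covered length was 0 bp in each of the 12 libraries. KMT2D, ASH2L and DPY30 had no H3K27me3 peak in their windows in any of 12 libraries. In both libraries of a stage, only KMT2B and RBBP5 were marked in 4-cell embryos (9.97% of all genes), only KMT2A and RBBP5 in blastocysts (32.5%), and 0 of 10 in MII oocytes (18.3%), 2-cell embryos (0.472%), 8-cell embryos (3.72%) and morulae (7.23%). Peaks in at least 2 libraries let 6 of the 10 genes into the fit of 10519 genes. Of these, 3 were called across the 6 stages by limma, beside 58.3% of the genes fitted. A gene entered the fit only through stages where it had peaks, so this count and the p-values of these genes are a description.

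KMT2A was covered by H3K27me3 over 3099 and 2549 bp in blastocysts, 323 bp in MII replicate 1 and 0 bp in the other 9 libraries (range 14.1 points, limma adjusted p = 8.43e-05). The widest peaks, chr9:45740163-45742445 and chr9:45740374-45742621, lay outside its lower-coordinate end, with deposited fold enrichments of 3.60 and 4.61. Inside the gene, more than 5 kb from both ends, H3K27me3 covered 4880 and 4735 bp in blastocysts and 0 and 962 bp in morulae. Of the 2072 bp near the KMT2A ends marked by H3K27me3 in both blastocyst libraries, 351 bp were marked by H3K4me3 in both as well.

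RBBP5 was covered by H3K27me3 over 2333 and 2250 bp in blastocysts, 277 and 1567 bp in 4-cell embryos and 0 bp elsewhere (range 11.5 points, limma adjusted p = 0.00354). In blastocysts the 2019 bp marked in both libraries, just outside the lower-coordinate end, all lay within H3K4me3 peaks of both libraries. The libraries pool cells, so both marks on 1 chromosome and marks in different cells cannot be told apart. KMT2B was covered over 820 and 1292 bp in 4-cell embryos, by 1 short peak in MII replicate 1 (chr6:45163851-45164272) and over 0 bp elsewhere (range 5.28 points, limma adjusted p = 0.00751), with 0 bp shared with H3K4me3 in both libraries. Only 272 bp were marked by H3K27me3 in both 4-cell libraries. Their wider KMT2B peaks lay at different places (chr6:45166045-45166592 and chr6:45168422-45169399), and the 4-cell peaks had a −log10 q of 1.46 to 1.87. With no filter on rarely marked genes, none of these 3 was called (adjusted p 0.143, 0.385 and 0.730 for KMT2A, RBBP5 and KMT2B), and RBBP5 was also lost with peaks of fold 3.5 or more (5.05 points, 0.501) and with quantile normalisation (7.85 points, 0.0835), where KMT2A stood at 4.31 points. In both libraries of any H3K27me3 stage, 0 of the 10 genes had a peak of −log10 q 3 or more. Over all genes the share ran from 0.0462% in 2-cell embryos to 3.71% in blastocysts, so this count lies close to the background. The RBBP5 peaks outside the lower-coordinate end in blastocysts had a −log10 q of 1.99 and 1.31.

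Other subunits that join only some of the complexes were read from a list of 12 partners, all of them matched. Across the stages 8 of 12 were called by limma, beside 57.2% of all genes. In blastocyst minus MII 6 of 12 were higher, beside 37.5%, and 0 lower, beside 4.73% (median 13.3 points). In 4-cell minus 2-cell 0 were called, beside 12.4% lower and 0.17% higher. In siKDM5BC minus 4-cell 4 of 12 were higher, beside 39.2%, and 0 lower, beside 0.0713% (median 11.0 points). PAXIP1, which joins the KMT2C and KMT2D complexes, was covered over 683 and 2630 bp at MII and over 13312 and 13200 bp at the blastocyst stage, a rise of 58.0 points (SE 6.68, limma adjusted p = 1.32e-05). It also had H3K27me3 over 3583 and 4107 bp in blastocysts.

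HCFC1, a host cell factor found in several of the complexes, rose by 47.3 points from MII to blastocyst (SE 8.95, limma adjusted p = 0.000725) and by 34.9 points in siKDM5BC embryos (0.00714). WDR82, which joins the SET1 complexes, rose by 31.6 points (0.000726), and BOD1L1 by 25.3 points (0.000134), both in blastocyst minus MII. In siKDM5BC embryos PAGR1, a partner of PAXIP1, rose by 41.7 points (0.0121), BOD1L1 by 14.8 (0.00788) and KDM6A, the H3K27 demethylase of the KMT2C and KMT2D complexes, by 12.1 points (0.0272). The partners share their stages and libraries with the 10 genes, and no comparison between the lists was made.

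Methyltransferases outside these complexes were a list of 7, of which PRDM9 did not match and 6 were fitted. In blastocyst minus MII 3 of 6 rose, beside 37.5% of all genes, ASH1L by 15.0 points (limma adjusted p = 0.00833), SMYD2 by 10.2 (0.0448) and SMYD1 by 6.60 (0.0311). SMYD1 had an H3K4me3 peak in only 4 libraries, all from the 8-cell stage on. It was covered over 1787 and 852 bp in blastocysts and 0 bp in both MII libraries, so its p-value is a description. KMT2E, named as a relative of the KMT2 enzymes but with no firmly known H3K4 methyltransferase activity, fell by 7.34 points (limma adjusted p = 0.0123). It was covered over 1191 and 385 bp in GV, 1701 and 1234 bp in MII, 2384 and 685 bp in 1-cell and 0 and 296 bp in 2-cell libraries, and was at 0 bp in every later untreated library and in siKDM5BC. SETD7, an H3K4 monomethyltransferase, was covered over 8564 and 7568 bp in 2-cell, 2471 and 2102 bp in 4-cell and 10361 and 6549 bp in siKDM5BC embryos. It fell by 28.9 points in 4-cell minus 2-cell (limma adjusted p = 0.00980) and rose by 30.8 points in siKDM5BC minus 4-cell (0.00158); these comparisons share the untreated 4-cell libraries. SMYD3 and SMYD2 rose by 13.4 and 11.3 points in siKDM5BC embryos (0.00715 and 0.0315). Of the 5 H3K4 demethylases listed, 3 were called across stages (57.2% of all genes), 3 were higher in blastocyst minus MII (37.5%), 1 was lower in 4-cell minus 2-cell (12.4%) and 0 were higher in siKDM5BC minus 4-cell (39.2%).

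The pattern of each gene over the 18 H3K4me3 libraries was also compared with that of all other genes fitted, by the Pearson correlation of the share covered, as a description. The points share their libraries. The gene most like RBBP5 was AASDH (r = 0.985), and 2164 genes had an r over 0.8 with it, the most of the 10 genes, while KMT2B had the fewest such genes, 22. The gene most like KMT2C was UCHL5 (0.944), most like SETD1B FAM46A (0.945), most like ASH2L DPAGT1 (0.944) and most like WDR5 CDK5 (0.936). For KMT2D it was HIPK3 (0.931), for SETD1A PKMYT1 (0.924), for KMT2A DGKZ (0.907), for DPY30 SEPHS1 (0.889) and for KMT2B UFD1 (0.874). Among the 10 genes the closest pair was KMT2C and SETD1B (0.821), followed by WDR5 and ASH2L (0.775). An r over 0.8 was reached by 742 genes with KMT2C, 448 with SETD1B, 711 with WDR5 and 865 with ASH2L, so such values were common.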

How the data were processed

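H3K4me3 was measured in 18 libraries and H3K27me3 in 12, with 2 libraries per group. Per the submitters' processing notes, reads were processed with Bowtie2 2.4.1 and MACS2 on the pig build susScr11; no MACS2 version, threshold or input control is stated there. The authors deposited 1 list of broad peaks per library, called per library and not on pooled reads. Its deposited values are a fold enrichment ratio and the −log10 p and −log10 q of each peak, which are the authors' own and served to describe or filter peaks within a list; the deposited score was not used. The lists hold no read totals, so no depth-based interval was computed and precision rests on 2 libraries per group.

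Peaks of a list did not overlap one another and were used as deposited. The bp covered within 5 kb of both ends of each coding gene (RefSeq annotation of the same assembly, by symbol) were summed as a percent of the window. Genes with a peak in at least 2 libraries of a mark entered limma 3.58.1 (R 4.3.3), with all groups of the mark in 1 fit, no covariates and Benjamini-Hochberg adjustment over all genes fitted, at a threshold of 0.05. The scripts were tested on simulated data. Alternatives were windows of 2.5 kb, peaks of −log10 q 3 or more or of fold 3.5 or more, log2(bp + 500), libraries centred on their mean over the genes fitted, no filter on low values, a replicate block, quantile normalisation and leaving out each library. Quantile normalisation and the 8-cell to morula step were chosen after seeing the data. The annotation used here gives no strand, so a planned window on transcription starts alone was not run.

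The 10 genes and all lists were chosen with earlier results of these data known. The text names all 10 genes, up to 4 genes per comparison with the largest called difference from the partner list and the other methyltransferase list, and gives demethylases as counts; the named likeness gene is the one with the highest Pearson r more than 100 kb away or on another chromosome. Python 3.11.15 with pandas 2.3.3 did the remaining steps.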

Additional observations from a re-analysis of the deposited data

How the results depend on the processing

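The share of fitted genes called by limma at an adjusted p under 0.05 depended on the peaks counted and on scaling, and the cause was not tested. In 4-cell minus 2-cell it was 12.5%, 6.48% with windows of 2.5 kb, 0.105% with peaks of fold 3.5 or more and 6.41% with quantile normalisation. In blastocyst minus MII it was 42.2%, and 82.9% with peaks of −log10 q 3 or more. In siKDM5BC minus 4-cell it was 39.3%, 23.5% with peaks of fold 3.5 or more and 4.78% with quantile normalisation. In morula minus 8-cell it was 19.6%, 36.7% with peaks of −log10 q 3 or more, 11.4% on the log2(bp + 500) scale and 12.8% with centred libraries. For H3K27me3 it was 58.3% (6133 genes), 70.8% with peaks of −log10 q 3 or more (961 of the fewer genes that still had peaks), 55.8% with peaks of fold 3.5 or more (3475 genes), 88.2% with centred libraries, 6.53% with no filter on low values and 38.2% with quantile normalisation. The number of genes called stayed within 1.5 times in the other 34 of these 48 cases.

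Leaving out 1 library gave 46.4% to 71.3% across the 8 stages, and 51.0% to 60.9% for H3K27me3. It gave 0.516% to 21.9% in 4-cell minus 2-cell, with 0.516% without 4-cell replicate 2, 5.33% without 4-cell replicate 1, 3.87% without 2-cell replicate 1 and 21.9% without either 1-cell library. It gave 27.8% to 48.9% in blastocyst minus MII, the lowest without blastocyst replicate 2. It gave 15.3% to 46.5% in siKDM5BC minus 4-cell, with 15.3% without 4-cell replicate 2 and 22.6% without siKDM5BC replicate 1. It gave 9.90% to 24.5% in morula minus 8-cell, with 9.90% and 11.1% without a morula library and 10.5% and 10.1% without an 8-cell library. A group left with 1 library is assumed to vary like the others.

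Some differences changed sign, given in percentage points unless stated. With peaks of −log10 q 3 or more, 4-cell minus 2-cell was 12.3 for WDR5, 21.7 for SETD1B, 7.20 for ASH2L, 6.90 for SETD1A, 2.10 for DPY30, 20.8 for KMT2D (called, limma adjusted p = 0.0351), 18.1 for KMT2A and 2.67 for RBBP5, and siKDM5BC minus 4-cell was 3.10 for KMT2B. With peaks of fold 3.5 or more, 4-cell minus 2-cell was 1.53 for WDR5, 1.85 for SETD1B, 2.51 for SETD1A, 3.77 for DPY30 and 8.12 for KMT2D. With windows of 2.5 kb, siKDM5BC minus 4-cell was −0.42 for KMT2D and 0.855 for KMT2B, and on the log2(bp + 500) scale KMT2B differed by 0.0479 in log2 units. With centred libraries, 4-cell minus 2-cell was 3.62 for SETD1B, 4.16 for DPY30, 7.13 for KMT2D and 4.28 for KMT2A. Blastocyst minus MII was −0.0767 for ASH2L, −7.25 for DPY30 and −2.65 for KMT2A. SiKDM5BC minus 4-cell was −2.47 for SETD1A, −5.31 for DPY30, −11.7 for KMT2D, −3.96 for KMT2A and −7.14 for RBBP5. Morula minus 8-cell was −1.64 for WDR5, −0.429 for ASH2L, −3.53 for SETD1A and −1.01 for KMT2D. With quantile normalisation, 4-cell minus 2-cell was 3.17 for WDR5, 15.0 for SETD1B, 6.41 for SETD1A, 15.5 for KMT2D and 13.0 for KMT2A. Blastocyst minus MII was −0.373 for SETD1B, −5.02 for DPY30 and −7.31 for KMT2A. SiKDM5BC minus 4-cell was −3.00 for WDR5, −14.9 for SETD1B, −9.01 for SETD1A, −19.1 for KMT2D and −13.3 for KMT2A. Morula minus 8-cell was −6.25 for WDR5, −0.397 for ASH2L, −7.95 for SETD1A, −8.79 for KMT2D and −1.17 for KMT2A.

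Of the differences called, WDR5 in siKDM5BC minus 4-cell is the one that changed sign. A left-out library also turned signs among values that were not called. In 4-cell minus 2-cell the ranges were −9.32 to 2.00 for DPY30, −3.04 to 1.66 for KMT2D, −8.49 to 1.41 for KMT2A, −2.20 to 14.5 for KMT2B, −0.872 to 9.51 for KMT2C and −11.2 to 2.80 for SETD1B. In siKDM5BC minus 4-cell they were −9.22 to 7.49 for KMT2B and −1.05 to 6.50 for KMT2D, and in morula minus 8-cell −1.58 to 7.70 for SETD1A.

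Replicate numbers gave no pairing common to all groups. Of 36 pairs of H3K4me3 groups, 4 had a correlation of same-numbered deviations over 0.1 (range −0.277 to 0.362, median 0.00385). For H3K27me3, 1 of 15 pairs did (range −0.0735 to 0.102). Whether some groups share a pairing was not tested. With the replicate number as a block, 54.8% of genes were called across the stages, 11.2% in 4-cell minus 2-cell, 41.0% in blastocyst minus MII, 38.0% in siKDM5BC minus 4-cell, 18.8% in morula minus 8-cell and 56.9% for H3K27me3. The block changed 1 call among the 10 genes, KMT2B across stages (adjusted p = 0.0593).

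With 2 libraries per group and no read totals, small differences and absent peaks cannot be told from low depth. Windows shared with neighbouring genes and the missing strand limit what a covered bp can be assigned to.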
